A study of Mus musculus with 8 samples.

Results

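The mitochondrial respiratory chain is built from nuclear genes that encode the subunits of complexes I to V, and 87 such genes were examined here for H3K4me1, H3K4me3 and H3K27ac in haematopoietic stem cells. They are the protein-coding genes of the mm10 annotation whose symbols begin with Nduf (followed by a, b, c, s or v and a digit), Sdha to Sdhd, Uqcr, Cox4 to Cox8 or Atp5, out of 21627 protein-coding genes. Assigned by symbol, complex I, the NADH dehydrogenase, contributed 40 genes, and complex II, succinate dehydrogenase, contributed 4. Complex III, the cytochrome bc1 complex, contributed 8, complex IV, cytochrome c oxidase, contributed 18, and complex V, the ATP synthase, contributed 17. The choice of genes and their assignment to complexes rested on symbols alone and on no measured value. By that rule Ndufa4 and Ndufa4l2 were counted in complex I and Cox7a2l in complex IV, whatever complex their products serve. Subunits encoded by mitochondrial DNA, nuclear subunits with other symbols, such as Cyc1 of complex III, and assembly factors with other symbols are not among them.

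The marks were read out by CUT&RUN, a method that uses antibody-bound protein A-MNase to cut out marked nucleosomes, whose DNA is then sequenced. RXRKO cells came from C57BL/6 mice with floxed Rxra and Rxrb (Rxrab fl/fl) and VaviCre, a recombinase driven by a promoter active in blood cells. WT cells came from C57BL/6 Rxrab fl/fl mice, and all mice were about 10 months old. The protocol text gives the WT mice no Cre, but the genotype label of the WT libraries lists VavCre+, so whether the groups also differ in Cre is not settled. Stem cells were sorted by surface markers from the pooled marrow of 4 or 5 mice, and 7500 cells went into each assay. H3K4me1 was mapped in 2 RXRKO and 2 WT libraries, and H3K4me3 and H3K27ac each in 1 RXRKO and 1 WT library. Nothing in the labels says that the H3K4me1 replicates came from separate pools, so p-values measure the spread between libraries, which may be technical.

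The deposited lists held 147698 and 165128 H3K4me1 peaks in RXRKO replicates 1 and 2, against 149377 and 159713 in WT replicates 1 and 2. They held 58136 H3K4me3 peaks in RXRKO and 47835 in WT, and 64849 H3K27ac peaks in RXRKO and 74287 in WT. The lists carry no read totals, so depth is unknown. At Rxrb, peaks covered 580 and 738 bp in the RXRKO H3K4me1 libraries and 1391 and 1431 bp in the WT ones, with a stretch of 781 bp called in both WT libraries and in neither RXRKO library. The other marks at Rxrb were longer in RXRKO, with H3K4me3 over 1686 bp in RXRKO and 1258 bp in WT and H3K27ac over 988 bp in RXRKO and 494 bp in WT. Rxra showed no such stretch over 76 bp, so these marks do not check its deletion. The stem cell marker genes Kit, Ly6a, Slamf1, Procr, Mecom, Hlf, Fgd5, Meis1 and Tek carried promoter H3K4me3 in both genotypes. So did 3 of 5 erythroid, 1 of 8 granulocyte and monocyte, 1 of 7 lymphoid and 4 of 5 stromal and endothelial markers. Over all genes the share was 65.6%. The lymphoid markers Cd79a (37 bp) and Lck (226 bp) had short promoter H3K4me3 calls in RXRKO and 0 bp in WT. Promoter H3K27ac was called in WT only at the lymphoid marker Rag1 (0 bp in RXRKO, 421 bp in WT) and the granulocyte marker Mpo (0 bp in RXRKO, 429 bp in WT), and at Lck it covered 281 bp in RXRKO and 495 bp in WT. The part of other cells in the differences between genotypes was not tested.

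Complexes I to IV pass electrons from NADH and succinate to oxygen, and complexes I, III and IV pump protons across the inner membrane as they do so. Complex V uses the returning protons to make ATP. The nuclear subunit genes are expressed in nearly all cells, and their promoters are known as targets of NRF1, of the ETS factor GABP, of YY1 and of the estrogen-related receptors, which the coactivator PGC-1alpha (Ppargc1a) assists. Long-term stem cells rely comparatively little on oxidative phosphorylation while quiescent. H3K4me3 marks promoters, H3K27ac marks active promoters and enhancers, and H3K4me1 lies at enhancers and on the flanks of promoters. Retinoid X receptors are nuclear receptors that bind DNA as partners of other nuclear receptors. A few heart, muscle, testis or hypoxia isoforms replace ubiquitous subunits in special tissues, chiefly in complex IV.

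Promoter sequences were available for 70 of the 87 genes (RefSeq, GRCm38.p6, 250 bases before to 50 after the listed 5′ end), and 6 are printed as examples of promoters with NRF1, ETS or YY1 matches and of a promoter with none of these. Capitals mark matches on either strand to the NRF1 motif (GCGCA, any base, then GCGC), the ETS motif CCGGAAG or the YY1 motif AAGATGGC. Sdhd, a membrane anchor of complex II (chr9:50603800-50604099, minus strand), holds NRF1 and ETS matches. Uqcrc1, a core protein of complex III (chr9:108936398-108936697, plus strand), holds a pair of NRF1 matches just after its start. Ndufs7, an iron-sulfur subunit of complex I (chr10:80249199-80249498, plus strand), holds a YY1 match after its start. Cox6a1, the ubiquitous form of complex IV subunit 6a (chr5:115348909-115349208, minus strand), and Atp5k, subunit e of complex V (chr5:108434350-108434649, minus strand), hold NRF1 and ETS matches. Cox7b2 (chr5:71548156-71548455, minus strand), an isoform of subunit 7b known for expression in testis, holds none of these motifs.
Sdhd: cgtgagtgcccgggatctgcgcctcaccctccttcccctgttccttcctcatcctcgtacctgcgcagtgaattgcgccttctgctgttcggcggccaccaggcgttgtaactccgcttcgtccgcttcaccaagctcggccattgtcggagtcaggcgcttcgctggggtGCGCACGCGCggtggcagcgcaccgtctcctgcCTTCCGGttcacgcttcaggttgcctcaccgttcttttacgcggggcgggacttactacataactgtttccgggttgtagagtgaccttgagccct
Uqcrc1: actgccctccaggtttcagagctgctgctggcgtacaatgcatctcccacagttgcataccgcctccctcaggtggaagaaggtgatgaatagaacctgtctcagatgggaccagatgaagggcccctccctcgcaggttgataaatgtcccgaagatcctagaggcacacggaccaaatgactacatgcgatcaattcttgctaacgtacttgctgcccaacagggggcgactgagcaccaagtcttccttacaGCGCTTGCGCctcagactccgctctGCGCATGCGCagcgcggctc
Ndufs7: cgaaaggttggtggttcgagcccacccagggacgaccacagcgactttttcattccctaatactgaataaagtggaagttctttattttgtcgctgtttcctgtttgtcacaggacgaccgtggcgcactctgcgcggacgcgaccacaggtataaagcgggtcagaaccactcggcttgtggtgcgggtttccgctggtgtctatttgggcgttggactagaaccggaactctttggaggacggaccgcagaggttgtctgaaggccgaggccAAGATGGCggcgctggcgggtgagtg
Cox6a1: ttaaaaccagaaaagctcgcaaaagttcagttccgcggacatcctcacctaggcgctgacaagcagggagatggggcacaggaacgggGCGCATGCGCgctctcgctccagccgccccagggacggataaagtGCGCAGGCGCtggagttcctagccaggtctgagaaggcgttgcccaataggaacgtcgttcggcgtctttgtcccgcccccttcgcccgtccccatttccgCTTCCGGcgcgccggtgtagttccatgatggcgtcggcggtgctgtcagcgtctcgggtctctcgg
Atp5k: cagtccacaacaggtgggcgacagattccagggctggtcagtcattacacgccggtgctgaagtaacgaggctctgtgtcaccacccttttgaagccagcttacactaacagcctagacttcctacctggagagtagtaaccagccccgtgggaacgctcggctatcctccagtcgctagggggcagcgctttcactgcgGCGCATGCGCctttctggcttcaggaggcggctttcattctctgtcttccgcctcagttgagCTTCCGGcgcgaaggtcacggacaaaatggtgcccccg
Cox7b2: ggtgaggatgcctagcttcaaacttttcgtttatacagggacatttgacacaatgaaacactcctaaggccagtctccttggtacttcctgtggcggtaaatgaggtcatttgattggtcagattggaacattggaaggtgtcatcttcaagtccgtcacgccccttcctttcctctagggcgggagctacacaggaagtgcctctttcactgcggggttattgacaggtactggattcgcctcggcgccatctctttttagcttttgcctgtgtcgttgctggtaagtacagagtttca

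NRF1 matches were present in 17 of the 70 promoters (24.3%), against 7.25% of all 17273 promoters with a listed start and 10.5% of the 11533 that carried H3K4me3 in both genotypes. ETS matches were also present in 17 promoters (24.3%), against 13.1% of all and 18.2% of the H3K4me3-marked ones. YY1 matches stood in 10 (14.3%), against 3.60% and 4.73%. The motif AAGGTCA, read by estrogen-related receptors, stood in 8 promoters (11.4%), among them Sdhd and Atp5k, against 4.72% and 3.60%. It contains the shorter AGGTCA, which a single nuclear receptor reads and which stood in 17 promoters (24.3%), against 16.6% and 14.4%. The SP1 motif GGGCGG was the reverse case, in 28 promoters (40.0%) against 49.8% of all and 69.3% of H3K4me3-marked ones. CCAAT (NF-Y) stood in 42.9% of the group's promoters and 42.7% of all, TATAAA in 11.4% and 14.9%, and CACGTG (bound by MYC and its relatives) in 8.57% and 9.02%. Exact direct repeats of AGGTCA with a spacer of 1 base (DR1) or of 4 bases (DR4), which RXR dimers read, stood in 0 of the 70, and in 10 (DR1) and 0 (DR4) of all promoters. Of the 70 promoters, 38 (54.3%) held an NRF1, ETS or YY1 match, against 21.3% of all and 29.5% of the H3K4me3-marked promoters. The median GC content was 57.3% in the group, 56.3% in all promoters and 61.3% in H3K4me3-marked ones. These counts describe letters in a 300-base window and were not tested.

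**Figure D1:**
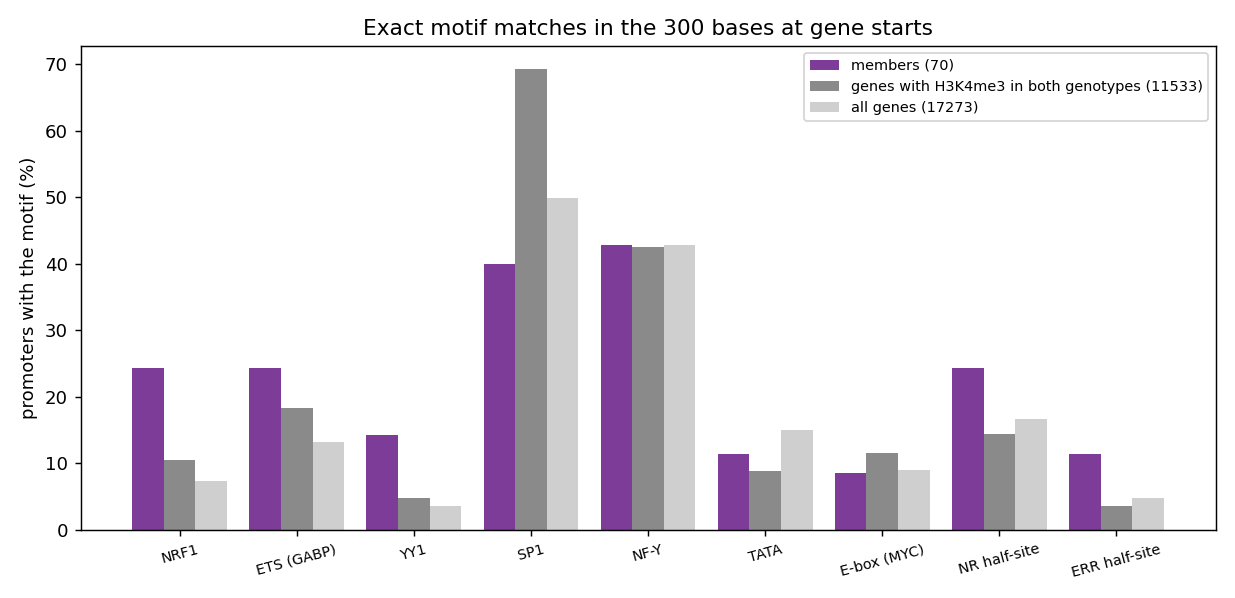
Share of promoters (%, vertical axis) with an exact match to each motif (horizontal axis) in the respiratory chain genes (members), in genes with H3K4me3 in both genotypes and in all genes with a listed start. NRF1, YY1 and estrogen-related receptor (ERR) bars are highest in the respiratory chain genes, and the SP1 bar is lowest in them, at 40.0%.

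Within the searched window, NRF1 matches lay at a median of -46 bp from the start, with 14 of 24 in the 100 bp upstream of it, and ETS matches at -18 bp, with 10 of 20 there. YY1 matches lay at a median of 23.5 bp downstream. A divergent gene began within 1 kb of 19 of the 70 starts (27.1%), against 8.59% of all genes with a listed start. Among these pairs were Atp5j, a coupling factor of complex V, with Gabpa, which encodes GABP's DNA-binding subunit, and Ndufa7 with the ribosomal protein gene Rps28. Sdhd shared its promoter region with Timm8b, a mitochondrial import chaperone, and Ndufb5 with the mitochondrial ribosomal protein gene Mrpl47. A peak at such a promoter cannot be assigned to one gene of the pair.

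H3K4me3 was called at nearly all of these genes in both genotypes. With a promoter defined as 1 kb on either side of either end of the gene, 79 of 87 genes were called in both RXRKO and WT, against 65.6% of all genes. None was called in RXRKO only or in WT only, where the background over all genes was 1.46% and 0.398%. Of the 70 genes with a listed start, 67 were called there in both genotypes (background 66.8%), 0 in RXRKO only (background 0.944%) and 0 in WT only (background 0.318%). H3K27ac was called in both genotypes at 76 of 87 (background 56.2%), in RXRKO only at 0 (background 1.32%) and in WT only at 2 (background 4.74%). H3K4me1 lay at the promoter in all 4 libraries for 74 genes (background 67.5%), in both RXRKO libraries and no WT library for 0 (background 0.19%), and in both WT libraries and no RXRKO library for 0 (background 0.25%). At the listed starts these H3K4me1 counts were 63 (background 66.7%), 0 (background 0.168%) and 0 (background 0.197%). By these rules, the 2 WT-only H3K27ac calls were the only promoter calls among the 87 genes that separated the genotypes.

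The marked stretch was of similar length in both genotypes. Where called, promoter H3K4me3 covered a median of 1473 bp in RXRKO and 1508 bp in WT, within the 2001 bp examined, while the medians over all called genes were 1333 bp in RXRKO and 1323 bp in WT. Promoter H3K27ac covered 1102 bp in RXRKO and 1115 bp in WT, while all called genes had 951 bp in RXRKO and 981 bp in WT. Peaks at starts were ranked within each list by the authors' fold over background. The H3K27ac start peaks of the group stood at a median percentile of 84.0 in the RXRKO list and 92.2 in the WT list, while those of all genes stood at 70.6 and 78.4 in the same lists. The H3K4me3 start peaks stood at 83.0 in the RXRKO list and 77.9 in the WT list, while those of all genes stood at 74.2 and 68.5. In the H3K4me1 lists the group's medians were 57.7 and 72.1 in RXRKO replicates 1 and 2 and 68.4 and 79.6 in WT replicates 1 and 2, and those of all genes were 59.9 and 71.1 in RXRKO and 61.0 and 74.0 in WT. Lists of different length give ranks that cannot be compared with each other.

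**Figure D2:**
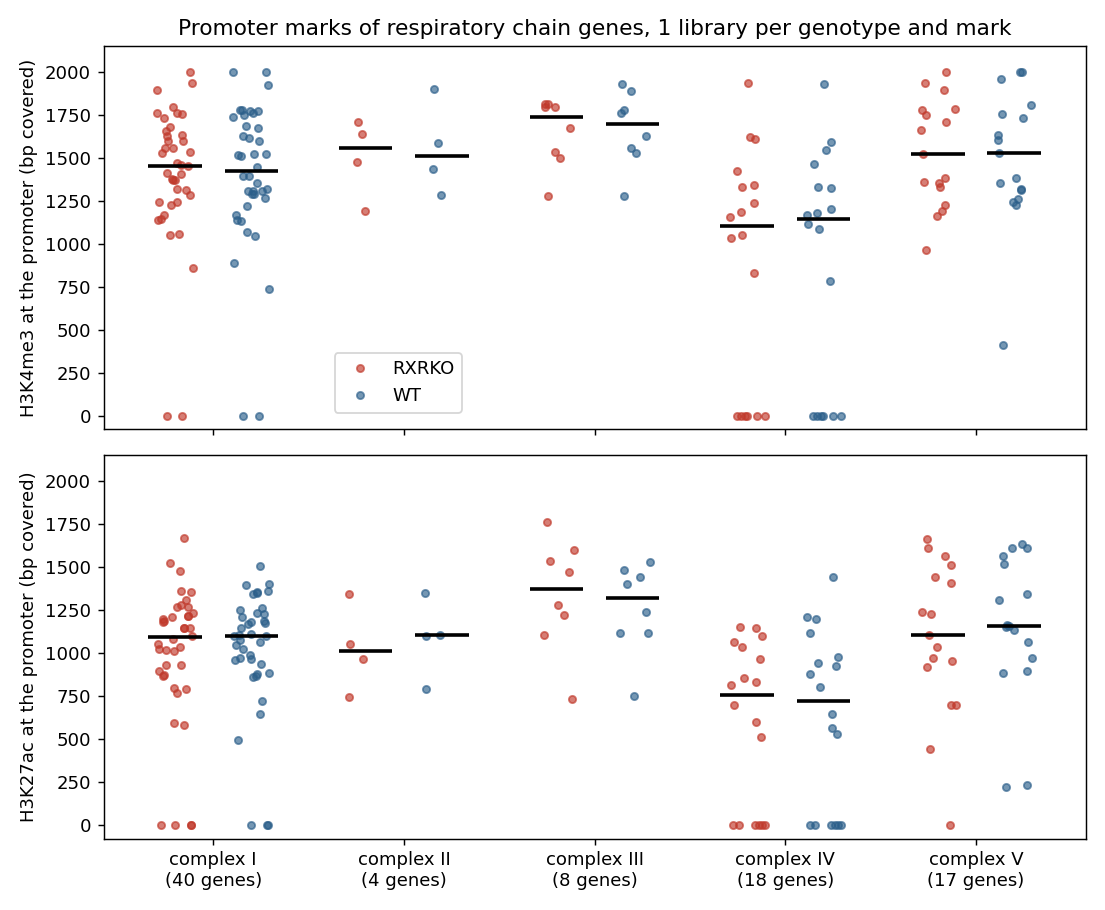
Base pairs of the promoter covered by H3K4me3 (upper panel) and H3K27ac (lower panel) for each respiratory chain gene by complex, with 1 point per gene, RXRKO left of WT, and bars at the median over all genes of a complex. Complex IV holds most of the genes at 0, and the RXRKO and WT medians of each complex lie close together.

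Complex III had the longest promoter H3K4me3, with a median over its 8 genes of 1735.5 bp in RXRKO and 1694.5 bp in WT. The medians were 1454 bp in RXRKO and 1421 bp in WT for complex I, 1555 bp in RXRKO and 1510 bp in WT for complex II, and 1519 bp in RXRKO and 1525 bp in WT for complex V. Complex IV had the shortest, 1104.5 bp in RXRKO and 1141.5 bp in WT, counting its 6 genes without a call as 0. Within complex I the longest was that of Ndufa13, an accessory subunit, with 2001 bp in both genotypes. In complex II the longest and shortest were Sdhd (1709 bp in RXRKO, 1901 bp in WT) and the iron-sulfur subunit Sdhb (1190 bp in RXRKO, 1284 bp in WT). In complex III they were the hinge protein Uqcrh (1812 bp in RXRKO, 1926 bp in WT) and Uqcrc1 (1278 bp in both). In complex IV they were Cox4i1, the ubiquitous subunit 4 (1932 bp in RXRKO, 1930 bp in WT), and the muscle isoform Cox7a1 (831 bp in RXRKO, 784 bp in WT). In complex V they were the peripheral stalk subunit Atp5pb (2001 bp in both) and Atp5g3, a source of the c ring (962 bp in RXRKO, 408 bp in WT). The Atp5g3 values are the edge, at the outer gene end, of a peak over its internal listed start, which was 2133 bp long in RXRKO and 1614 bp in WT. The marked ends of Ndufa13, Sdhd, Uqcrh, Cox4i1 and Atp5pb lay within 1 kb of another gene's end. So did those of Uqcr10, Uqcrb and Uqcrq in complex III, but not those of Sdhb, Uqcrc1, Cox7a1 and Atp5g3. The part of such neighbours in these lengths was not tested.

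The 21 genes listed here as core subunits include some redox subunits of complexes I to III, without Cyc1, and some nuclear subunits of complex IV. They also include the alpha, beta and gamma subunits of complex V, and they were marked alike. H3K4me3 was called in both genotypes at 20 of them and covered up to 1933 bp in RXRKO (Ndufs1) and up to 2001 bp in WT (Atp5b). At Cox6c, among the shorter ones, it covered 1053 bp in RXRKO and 1086 bp in WT. The exception was Cox5a, whose listed start lies inside the annotated gene. A peak covered that start at chr9:57520656-57522499 in RXRKO and at chr9:57520713-57522521 in WT. H3K27ac was called in both genotypes at 19 core subunits, and in neither genotype at the outer ends of Cox5a.

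The 8 genes without H3K4me3 at an outer end in either genotype were Cox5a, Cox6a2, Cox7a2, Cox7b2, Cox8b, Cox8c, Ndufb4b and Ndufb4c. Cox7a2, the ubiquitous form of subunit 7a, resembled Cox5a, with a peak over its internal listed start at chr9:79758926-79760540 in RXRKO and chr9:79758919-79760535 in WT. Of the 70 genes with a listed start, only Cox7b2, Cox8b and Ndufb4b had no H3K4me3 there in either genotype. Ndufb4b and Ndufb4c are 471 and 485 bp long and resemble Ndufb4 by name, and reads could be shared between such copies. Ndufb4 itself carried 1374 bp in RXRKO and 1306 bp in WT.

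The tissue-restricted isoforms divided into those with and without promoter H3K4me3. Cox6a2 and Cox8b, the heart and muscle forms of subunits 6a and 8, Cox8c and Cox7b2 had 0 bp in both genotypes. Their ubiquitous partners had long marks. Cox6a1 had 1609 bp in RXRKO and 1593 bp in WT, Cox8a 1420 bp in RXRKO and 1461 bp in WT, and Cox7b 1186 bp in RXRKO and 1180 bp in WT. The other 4 isoforms were marked in both genotypes. Cox7a1, the heart and muscle form of subunit 7a, carried its 831 bp (RXRKO) and 784 bp (WT) over its own listed start, with H3K27ac over 597 bp in RXRKO and 565 bp in WT. Cox6b2, known from testis, carried 1343 bp in RXRKO and 1324 bp in WT at the end it shares with Fam71e2. Cox4i2, known from lung and for its induction under low oxygen, carried 1035 bp in RXRKO and 1114 bp in WT. Ndufa4l2, a hypoxia-induced relative of Ndufa4, carried 1138 bp in RXRKO and 886 bp in WT at the end beside Stac3, and no promoter H3K27ac in either genotype.

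**Figure D3:**
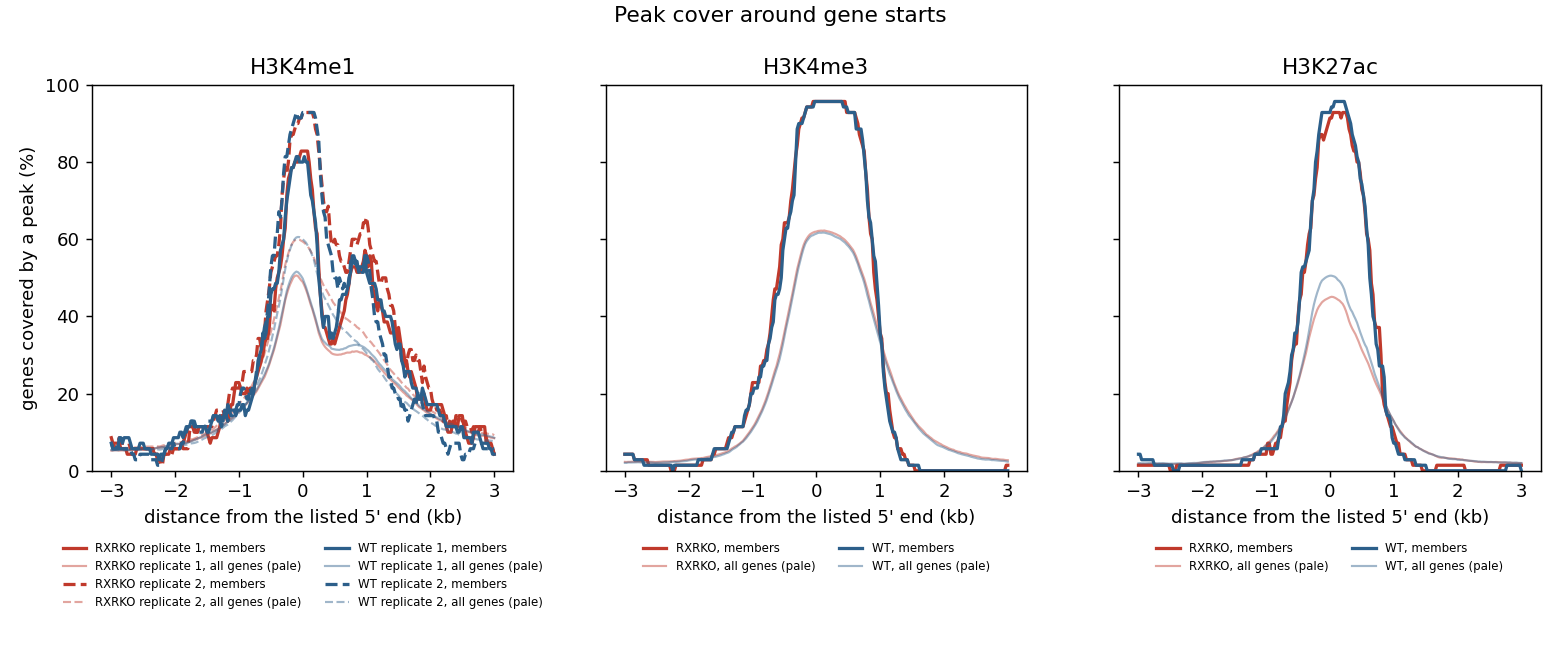
Share of genes (%, vertical axis) covered by a peak at each distance from the listed 5′ end (horizontal axis, kb) for the 70 respiratory chain genes with a listed start (strong lines) and all genes (pale lines), with RXRKO in red, WT in blue and replicate 2 dashed. H3K4me3 and H3K27ac profiles of RXRKO and WT overlie each other in the respiratory chain genes, and at and just behind the start the H3K4me1 profiles of replicate 1 lie below those of replicate 2 in both genotypes.

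Around the listed starts, H3K4me3 was the broadest mark. H3K4me3 peaks of the group reached a median of 618 bp upstream and 912 bp downstream in RXRKO, and 558 bp upstream and 955 bp downstream in WT. H3K27ac peaks were shorter, reaching 430 bp upstream and 654 bp downstream in RXRKO, and 459 bp upstream and 642 bp downstream in WT. H3K4me1 covered the start itself at 58 and 65 of 70 genes in RXRKO replicates 1 and 2, and at 56 and 65 of 70 in WT replicates 1 and 2. The shares over all genes were 48.9% and 59.4% in RXRKO and 49.8% and 60.0% in WT. At 500 bp downstream, H3K4me1 covered 32.9% and 60.0% of the group's genes in RXRKO replicates 1 and 2, and 35.7% and 50.0% in WT replicates 1 and 2. For all genes these were 30.1% and 43.1% in RXRKO and 31.5% and 39.8% in WT. At 1000 bp downstream H3K4me1 covered 55.7% and 65.7% of the group in RXRKO and 51.4% and 55.7% in WT. For all genes these were 29.9% and 34.6% in RXRKO and 31.5% and 30.5% in WT. Over all genes, cover at 500 bp was not below that at 1000 bp in any library. The group's dip behind the start was deep in replicate 1 of both genotypes and shallow in replicate 2. Both replicate 1 libraries share a run tag in their peak names, and both replicate 2 libraries share another. What kind of run the tags name is not stated, and the part of the run in this difference was not tested.

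For H3K4me1, peak-covered length was compared over a window from 5 kb before to 5 kb after the gene, as log2 of bp plus 1000, after centring on each library's median. Of the 87 genes, 83 had a mean of at least 1000 bp and entered the fit. In limma with Benjamini-Hochberg adjustment over 16715 genes, 0 of the 83 passed at an adjusted p under 0.05 in either direction (background 0% in each direction). At an unadjusted p under 0.05 there were 3, namely Cox7b2, Ndufa9 and Atp5pb, which is 3.61% of the group (background 5.47%). The log2 difference, RXRKO minus WT, was above 0 for 41 of 83 genes (49.4%, against 47.4% of all genes). Its median was -0.00327 in the group and -0.00726 over all genes. Both RXRKO libraries lay above both WT libraries for 17 genes, or 20.5% (background 14.7%), and below them for 16, or 19.3% (background 17.1%). In uncentred lengths, RXRKO replicate 2, the list with the most peaks, was the longest of the 4 libraries at 60 of 87 genes. Over the genome that list covered 133 Mb, against 110 to 118 Mb in the other H3K4me1 lists. The share over all genes is not given, so this count is not read as a trait of the group. Another gene lay in the window of 71 of the 87 (81.6%, against 49.7% of all genes), so part of the covered length may belong to neighbours. In pooled cells, fewer cells with a mark and less mark per cell cannot be told apart.

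**Figure D4:**
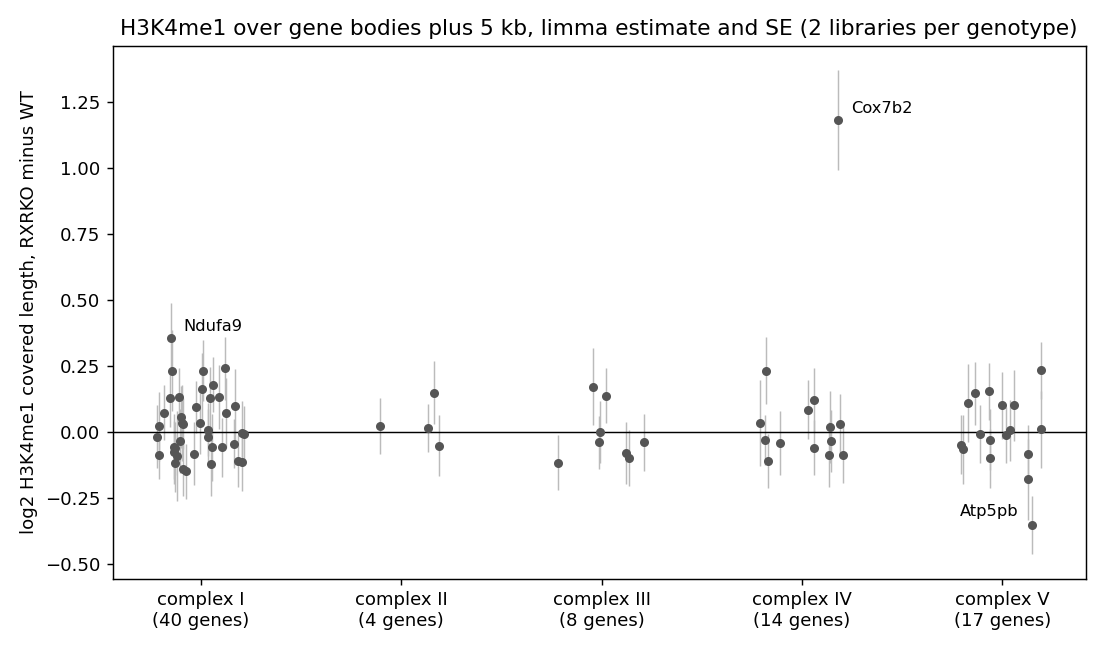
Log2 difference in H3K4me1 covered length, RXRKO minus WT (vertical axis), for each tested respiratory chain gene by complex, with 1 point per gene and bars of 1 SE from limma over 2 libraries per genotype. Most points lie near 0, and Cox7b2 stands apart at 1.18.

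Cox7b2 had the largest difference. It spans chr5:71442823-71548205 on the minus strand with no other gene in its window. H3K4me1 covered 2839 and 5337 bp in RXRKO replicates 1 and 2, and 765 and 1468 bp in WT replicates 1 and 2. Both RXRKO libraries lay above both WT libraries, including RXRKO replicate 1, the list with the fewest H3K4me1 peaks. The log2 difference was 1.18 (SE 0.188, adjusted p = 0.179 with limma). With the replicate number as a block, the limma adjusted p was 0.00569, and Cox7b2 was the only one of the 87 genes to pass (background 0.0598% higher and 0.0299% lower in RXRKO). Over the other settings in which it was tested, its adjusted p ran between 6.53e-15 (no filter on covered length) and 0.76 (without RXRKO replicate 2), so the call depended on the setting. With 1 kb around gene ends or with peaks of fold at least 4 it had too little covered length to be tested.

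The Cox7b2 peaks lay inside the gene, none at its start. There were 5 and 6 H3K4me1 peaks in RXRKO replicates 1 and 2, and 2 and 3 in WT replicates 1 and 2. Stretches at chr5:71496679-71497905 and chr5:71513250-71514073 were called in both RXRKO libraries and in neither WT library. A single element, whose RXRKO H3K4me3 peak lay 39730 to 40573 bp downstream of the start, was called for all 3 marks in every library. H3K4me1 there covered 923 and 1264 bp in RXRKO replicates 1 and 2, and 383 and 954 bp in WT replicates 1 and 2, so the genotypes overlapped. At the same element H3K4me3 covered 844 bp in RXRKO and 364 bp in WT, and H3K27ac covered 1044 bp in RXRKO and 236 bp in WT. The promoter had none of the 3 marks in any of the 8 libraries. With 1 library per genotype, the H3K4me3 and H3K27ac values have no replicate check.

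**Figure D5:**
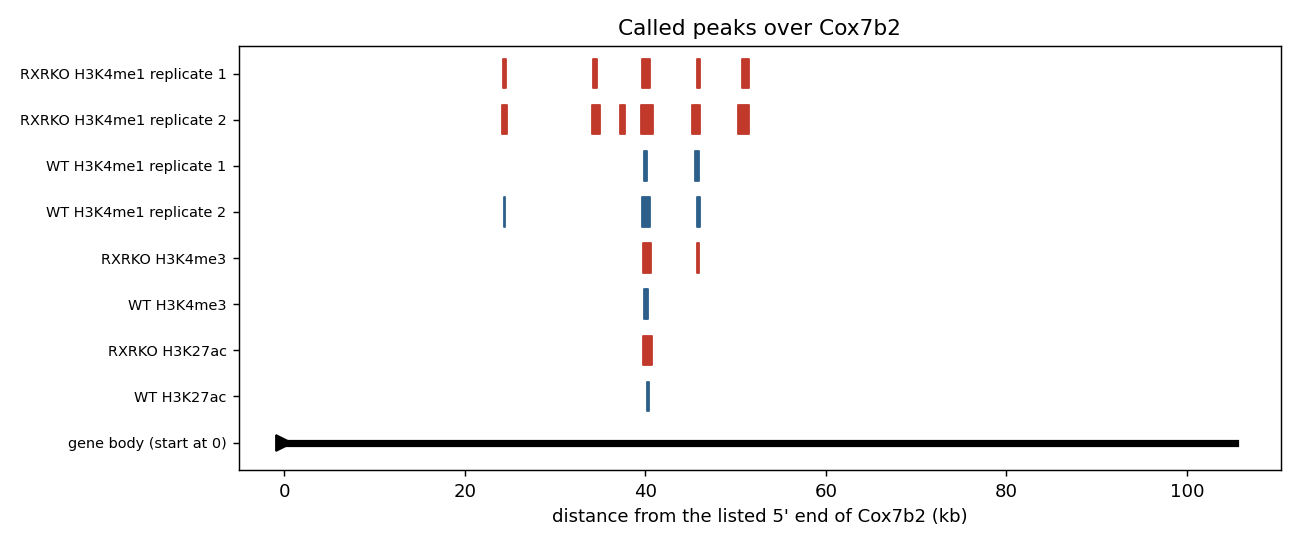
Called peaks over Cox7b2 in each of the 8 libraries, drawn by distance from the listed 5′ end (horizontal axis, kb), with RXRKO rows in red above WT rows in blue for each mark. RXRKO H3K4me1 replicates hold 5 and 6 peaks and WT H3K4me1 replicates 2 and 3, and none lies at the start.

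Ndufa9, an accessory subunit of complex I, had 3989 and 4622 bp of H3K4me1 in RXRKO and 3471 and 2542 bp in WT. The log2 difference was 0.35 (SE 0.133, limma adjusted p = 0.823), and a region at chr6:126822983-126823708 was called in both RXRKO libraries and in neither WT library. Atp5pb had 1840 and 2088 bp in RXRKO and 2593 and 2679 bp in WT, with a log2 difference of -0.35 (SE 0.110, limma adjusted p = 0.682). Part of that difference lay at an element inside Atp5pb (chr3:105948192-105949111). H3K4me1 peaks overlapping it covered 253 bp in RXRKO replicate 1 and none was called in RXRKO replicate 2, against 920 bp in WT replicate 1 and 651 bp in WT replicate 2. H3K27ac at the same element covered 320 bp in RXRKO and 797 bp in WT. Ndufa3, Atp5mpl and Ndufb9 were next above 0, with log2 differences of 0.24, 0.23 and 0.23. Atp5h, Ndufb7, Ndufb2 and Ndufa2 were next below 0, with -0.18, -0.15, -0.14 and -0.12. None of these 7 passed limma, with adjusted p between 0.931 and 0.999.

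H3K4me3 over the same windows differed little between the 2 libraries. None of the 80 genes with enough covered length differed by 2-fold in either direction (background 0.0652% higher and 0.013% lower in RXRKO). The median log2 difference, RXRKO minus WT, was -0.07 in the group and -0.04 over all genes, and 12 of 80 genes were above 0 (15%, against 39.2% of all genes). The sign of this median depends on the centring, since without it the group's median was 0.0144. The highest values were those of Ndufa12 (1880 bp in RXRKO, 1288 bp in WT, log2 difference 0.24), Atp5g3 (0.17), Ndufa8 (0.13), Ndufb10 (0.12) and Ndufa10 (0.11). A stretch of 509 bp within Ndufa12 was called in RXRKO only, and its promoter was marked over 1371 bp in RXRKO and 1288 bp in WT. The lowest were Cox6b1 (1236 bp in RXRKO, 1448 bp in WT, -0.22), Ndufb7 (-0.19), Sdhd (-0.18), Ndufb3 (-0.17) and Ndufb9 (-0.17).

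H3K27ac showed wider spread and likewise no 2-fold difference among 72 genes (background 0.202% higher and 0.272% lower in RXRKO). The median log2 difference was 0.0326 in the group and 0.0031 over all genes, with 40 of 72 above 0 (55.6%, against 50.6% of all genes). Without centring the group's median was -0.0135. Ndufa5 was highest, with 2104 bp in RXRKO and 1180 bp in WT (0.56), followed by Ndufv2 (0.39), the chromosome 18 gene Atp5a1 (0.33), Atp5g3 (0.24) and Ndufv3 (0.23). The Ndufa5 window included a region of 454 bp called in RXRKO only (chr6:24514857-24515310). That region lay outside Ndufa5 itself (chr6:24518662-24527690) and 211 bp from an end of another gene, so part of this difference may belong to that neighbour. Among the lowest were Ndufa4l2, with 779 bp in RXRKO and 1526 bp in WT (-0.46), Uqcrc1 (-0.45), Ndufs3 (-0.38) and Atp5pb (-0.36).

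At Atp5d, the delta subunit of complex V and a WT-only promoter call of H3K27ac, the WT-only peak lay at an outer gene end at chr10:80139269-80139501, and the listed start was covered by H3K27ac peaks of 603 bp in RXRKO and 504 bp in WT. At the listed starts of the 70 genes, H3K27ac was called in both genotypes at 67 (background 57.6%), in RXRKO only at 0 (background 0.949%) and in WT only at 0 (background 3.99%).

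Regions called in 1 genotype only were uncommon in the windows of these genes. Of 133 H3K4me3 regions, 6 were called in RXRKO only and 1 in WT only (background 20.2% and 3.62% of regions in all gene windows). Of 171 H3K27ac regions, 8 were called in RXRKO only and 21 in WT only (background 12.5% and 23.2%). Of 324 H3K4me1 regions, 6 were called in both RXRKO and no WT library and 1 in both WT and no RXRKO library (background 2.11% and 1.75%). Those 6 lay at Cox5a, Cox7b2 (2 of them), Cox8a, Ndufa3 and Ndufa9. The H3K4me3 list of RXRKO and the H3K27ac list of WT are the longer of their pairs, and the part of list length in these counts was not tested.

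Most genes that serve the chain without being subunits also carried promoter H3K4me3. Promoter H3K4me3 was present in both genotypes at 45 of 46 assembly factors and 17 of 19 electron carriers and ubiquinone synthesis genes. It was also present at 18 of 20 regulators of mitochondrial biogenesis, and the share over all genes was 65.6%. Promoter H3K27ac was called in both genotypes at 45 of the 46 assembly factors, 17 of the 19 carriers and 15 of the 20 regulators (background 56.2%). None of the 3 lists had a gene that passed limma for H3K4me1, where the background over all genes was 0% in each direction. Esrrb, an estrogen-related receptor, had 251 bp of promoter H3K4me3 in RXRKO and 0 bp in WT. Ppargc1a had 0 bp of promoter H3K27ac in RXRKO and 375 bp in WT, while its window H3K4me3 covered 12593 bp in RXRKO and 7969 bp in WT, a log2 difference of 0.51 and the largest of the regulators. Among assembly factors the largest difference was that of Ttc19, which acts on complex III, with H3K27ac over 2253 bp in RXRKO and 1506 bp in WT (0.42). Among carriers it was that of Etfb, a subunit of the electron transfer flavoprotein, with H3K27ac over 1953 bp in RXRKO and 2665 bp in WT (-0.27). Each H3K4me3 and H3K27ac value of these lists rests on 1 library per genotype and was not tested. Nor was the part of list length, which for H3K4me3 was greater in RXRKO.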

How the data were processed

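Each of the 8 libraries has a deposited peak list. The submitters' processing notes name cutadapt 1.7.1, Bowtie2 2.2.5, the build mm10 and MACS3. The version of this caller, and whether a control library, duplicate removal or a spike-in was used, is not given in the sources used here. Scores deposited by the authors equal 10 times -log10 q, truncated, and their fold is a ratio of peak height to local background. The authors' fold and -log10 values were used only to rank or filter peaks within a list. Because the lists carry no read totals, depth is unknown and counting intervals cannot be given.

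Gene positions (GRCm38.p6, the same build, 20 chromosomes, no strand) and listed 5′ ends came from RefSeq tables. Coordinates are 1-based. Promoters spanned 1 kb to each side of either gene end and counted as called with at least 1 bp of overlap with a peak. Promoter length is that of the end with more cover. Covered lengths over the gene body plus 5 kb were log2-transformed after adding 1000 bp, with the median of each library subtracted, for genes with a mean of at least 1000 bp. H3K4me1 was fitted with limma 3.58.1 in R 4.3.3 (lmFit, eBayes with trend, no block). The fit was also run on simulated lengths with the same spread at every gene and no run effect. That run does not show how small a difference could be found in the real lists. H3K4me3 and H3K27ac have 1 library per genotype and no test. Regions are merged overlapping peaks of a mark. Overlaps and motif searches used Python 3.11.15.

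Replicate numbers are given in the labels, and the run tags that the peak names carry assign the 2 replicate 1 H3K4me1 libraries to a run of their own, apart from the remaining 6. The numbers therefore mark a run shared by both genotypes. Over 16715 genes, which are not independent replicates, the replicate difference in RXRKO correlated with that in WT with r = 0.226. Values with the replicate block stand beside the result they change.

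Genes named are the core subunits and tissue-restricted isoforms, genes passing limma, the 5 largest differences in each direction per mark, promoters called in 1 genotype only or in neither, and the longest and shortest H3K4me3 promoter of each complex. For the assembly factor, carrier and regulator lists they are those called in 1 genotype only and the largest difference. Genes whose sequences, pairs or regions are described were chosen after their values were seen. The respiratory chain genes and the lists were chosen with earlier results of these data known. Some genes that these rules or lists name are not reported here.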

Additional observations from a re-analysis of the deposited data

How the results depend on the processing

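Over the alternatives, 64 comparison-level values kept their call or size and 19 moved, and the cause of each move was not tested. The count of respiratory chain genes passing limma for H3K4me1 was 0 of 83 (background 0 of 16715 genes). It was 1 of 83 (Cox7b2) in the fit with the replicate block (background 15 of 16715). With no filter on covered length it was 1 of 87, again Cox7b2 (background 280 of 21627). When each library was left out in turn, the Cox7b2 log2 difference lay between 0.923 and 1.44. The replicate block changed no other call at an adjusted p under 0.05 among the 87 genes. At an unadjusted p under 0.05 it gave 5 of 83 genes rather than 3 (background 1349 rather than 914 of 16715). The median H3K4me1 log2 difference of -0.00327 became 0.00576 with 1 kb around gene ends, 0.106 with peaks of fold at least 4, 0.00643 with an offset of 100 bp and 0.0544 without centring, and ranged from -0.0222 to 0.00424 with a library left out. The sign turned at Atp5h (0.0724 without RXRKO replicate 1, with a lowest value of -0.43 without RXRKO replicate 2), Ndufb2 (0.139) and Ndufa2 (0.236) with peaks of fold at least 4, and Atp5mpl (-0.00226 with 1 kb around gene ends, -0.236 with peaks of fold at least 4). Only peaks of fold at least 4 gave 1 gene past 2-fold for H3K27ac, 40 rather than 74 genes with promoter H3K4me1 in every library, 5 rather than 0 in WT only, 1 rather than 0 with H3K4me3 in RXRKO only, and for H3K27ac 1 rather than 0 in RXRKO only and 9 rather than 2 in WT only. With 500 bp around gene ends, H3K4me3 was called in RXRKO only at 1 gene and H3K27ac in WT only at 1, and with listed 5′ ends alone H3K27ac was called in WT only at 0. Shares over all genes are not given for the counts with peaks of fold at least 4 or with 500 bp around gene ends. Those counts are therefore not read as a trait of the group. Of the values of single genes and of H3K4me3 and H3K27ac medians, 102 stayed the same, 3 moved, 4 passed the threshold (all Cox7b2) and 5 turned sign. Covered length says where a peak was called and not how much mark was there, a peak under the caller's threshold counts as absent, and with 2 libraries per genotype small differences may be missed.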

Other observations

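Most genes of the pathways that feed the chain likewise carried promoter H3K4me3. Of 14 tricarboxylic acid cycle genes, 13 had promoter H3K4me3 in both genotypes (background 65.6%), and none passed limma for H3K4me1 (background 0% in each direction). Their largest H3K4me3 difference was at Suclg2, a subunit of the GTP-forming succinyl-CoA ligase, with 3196 bp over the gene and its flanks in RXRKO and 1639 bp in WT (log2 difference 0.58). Of 17 glycolysis genes, 15 had promoter H3K4me3 in both genotypes (background 65.6%), and 0 passed limma for H3K4me1 (background 0% in each direction). H3K27ac was called at the promoter of Tpi1, triosephosphate isomerase, over 0 bp in RXRKO and 746 bp in WT. Over the windows, the centred H3K27ac log2 difference was above 0 at 14 of the 17 glycolysis genes (and at 50.6% of all genes). Among these 14, Aldoc (1843 bp in RXRKO, 1896 bp in WT), Pgam1 (2130 bp in RXRKO, 2159 bp in WT) and Eno1 (1549 bp in RXRKO, 1630 bp in WT) were shorter in RXRKO before centring. The median log2 difference of the 17 genes was 0.14. Tpi1 had the largest difference, at -0.38 with 1730 bp in RXRKO and 2670 bp in WT. These H3K4me3 and H3K27ac values rest on 1 library per genotype and were not tested.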
